A study of Mus musculus with 14 samples.

Results

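A list of 35 genes of hepatic stellate cells and the extracellular matrix was followed in ATAC-seq of mouse liver, an assay in which a transposase cuts and tags accessible DNA. An accessible interval was counted to a gene if its midpoint lay inside the gene, or else if that gene was the nearest protein-coding gene within 50 kb. By this rule 141 of 88203 intervals in the chow table belonged to 31 of the 35 genes, and 183 of 105801 intervals in the high-fat table belonged to 28 of them. In both tables the interval just inside that distance limit was at Col4a1, 49.5 and 49.4 kb from the gene. It held 10.6 CPM on chow and 6.74 CPM on the high-fat diet. CPM are counts scaled to 1 M reads of the library within intervals, after adjusting that total by the library's TMM normalization factor. The nearest interval beyond the limit, 52.9 kb from Col4a1 in both tables, held 8.52 and 5.8 CPM.

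Hepatic stellate cells lie between the hepatocytes and the sinusoidal endothelium, where they store vitamin A as retinyl esters. After injury they turn into contractile cells that express smooth muscle actin and lay down fibrillar collagen, and TGF-beta and PDGF are the best known signals of that change. Matrix is not made by stellate cells alone: hepatocytes secrete the plasma form of fibronectin, and endothelial cells contribute type IV collagen.

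The animals were female mice with a floxed matrin-3 gene (Matr3, encoding an RNA- and DNA-binding protein of the nuclear matrix). Knockout animals (LKO) carried Albumin-Cre in addition, which removes the floxed segment in hepatocytes, so the stellate cells of both genotypes kept the gene. Their floxed littermates served as controls. Per the labels' protocols, chow or a diet with 60 kcal% fat was given from 7 weeks of age for 16 weeks, and the high-fat animals were fasted for 12 h before the livers were taken; the feeding state of chow animals is not stated in the labels. Nuclei came from 50 mg of frozen liver. There were 3 knockout and 3 floxed livers on chow, and 4 of each on the high-fat diet. The question put to the data was whether loss of matrin-3 in hepatocytes goes with a change of accessibility at these genes on either diet.

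Reads in intervals totalled 15.5 to 35 M (megareads) per library on chow, where both libraries numbered 2 were the shallowest (15.5 and 17.1 M), and 7.59 to 10.4 M on the high-fat diet. The strongest interval at Matr3 had a chow level of 27.3 ± 3.03 CPM in floxed and of 27.8 ± 2.86 CPM in knockout livers (SD, n = 3), with 30.1 ± 5.79 and 29.9 ± 1.86 CPM under high-fat feeding (SD, n = 4). Which segment is floxed is not stated in the labels, so these values do not check the deletion. All 16 hepatocyte markers had intervals in both tables, with a median of 11.7 CPM per interval on chow against 7.97 CPM over all intervals. In nuclei of whole liver, fewer cells of a type and less accessibility per cell cannot be told apart.

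No interval was assigned to Col6a3, Timp1 or Dcn in either table. Lum had none on chow, and Col5a1, Col6a2, Lox and Rgs5 had none on the high-fat diet, so 27 members could be followed on both. Fn1, encoding fibronectin, held 39 of the 141 chow intervals and 64 of the 183 high-fat intervals, and Col4a1, a chain of the type IV collagen of basement membranes, held 13 and 19. Together the members took 0.114 to 0.138% of a library's reads on chow and 0.126 to 0.144% on the high-fat diet. Member intervals had a median of 7.02 CPM against 7.97 CPM over all chow intervals, and of 6.28 CPM against 6.74 CPM over all high-fat intervals.

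Few member intervals lay at a start site. On chow 12 of 141 (8.51%) overlapped the RefSeq start window of their gene, which runs from 250 bases before to 50 bases after a transcription start, against 12.1% of all assigned intervals. For the high-fat table the share was 13 of 183 (7.1%) against 10.5%. Col1a1, Col14a1, Pdgfrb, Lox, Loxl1, Fn1, Dcn, Lum, Mmp2 and Cygb have no window entry. Their intervals are in the totals but could not overlap a window, which lowers the members' shares. Only 17274 of the 21631 protein-coding genes have a window, so the shares of all assigned intervals are lowered too. Without Fn1 alone the members' shares were 11.8% and 10.9%. These shares therefore do not show that start sites were rarer among members. The windows that did hold an interval had a median level of 8.66 CPM on chow, compared with 19.2 CPM for start windows of all genes, and of 8.7 CPM compared with 17.2 CPM on the high-fat diet.

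The window table matched 25 of the 35 members with 28 windows, and 15 windows of 12 genes overlapped an interval in at least 1 table. Stellate genes with an accessible start included Reln (a secreted glycoprotein that marks quiescent stellate cells), Lhx2 (a homeobox factor that restrains stellate cell activation) and Lrat (the enzyme that esterifies retinol for storage), and the matrix genes with one included Col4a1. Their windows are shown because these starts carried reads in both tables. Capitals mark the GC box (GGGCGG) and the CCAAT box (CCAAT), each searched on both strands. The Reln window is at chr5:22344656-22344955 on the minus strand, the Lhx2 window at chr2:38339031-38339330 on the plus strand, the Lrat window at chr3:82903925-82904224 on the minus strand, and the Col4a1 window at chr8:11312777-11313076 on the minus strand (RefSeq, GRCm38.p6, the assembly that mm10 names, 5′ to 3′).
Reln: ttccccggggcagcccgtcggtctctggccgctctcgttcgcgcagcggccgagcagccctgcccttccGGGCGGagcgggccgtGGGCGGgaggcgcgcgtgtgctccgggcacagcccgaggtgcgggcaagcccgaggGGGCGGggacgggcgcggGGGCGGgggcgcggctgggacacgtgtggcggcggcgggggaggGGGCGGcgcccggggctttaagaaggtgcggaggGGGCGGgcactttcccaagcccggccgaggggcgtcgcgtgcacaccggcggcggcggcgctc
Lhx2: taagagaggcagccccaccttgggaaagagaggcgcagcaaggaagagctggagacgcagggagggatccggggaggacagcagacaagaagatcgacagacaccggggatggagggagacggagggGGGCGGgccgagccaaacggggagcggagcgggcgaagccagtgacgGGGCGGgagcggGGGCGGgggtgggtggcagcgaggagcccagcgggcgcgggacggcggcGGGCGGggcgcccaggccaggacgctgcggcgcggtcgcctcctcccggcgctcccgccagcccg
Lrat: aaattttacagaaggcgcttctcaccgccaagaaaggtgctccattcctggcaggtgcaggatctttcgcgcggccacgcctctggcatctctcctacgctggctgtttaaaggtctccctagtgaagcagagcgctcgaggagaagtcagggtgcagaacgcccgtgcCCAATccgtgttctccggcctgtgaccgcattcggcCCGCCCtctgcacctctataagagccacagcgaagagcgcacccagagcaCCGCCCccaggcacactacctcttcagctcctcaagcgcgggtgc
Col4a1: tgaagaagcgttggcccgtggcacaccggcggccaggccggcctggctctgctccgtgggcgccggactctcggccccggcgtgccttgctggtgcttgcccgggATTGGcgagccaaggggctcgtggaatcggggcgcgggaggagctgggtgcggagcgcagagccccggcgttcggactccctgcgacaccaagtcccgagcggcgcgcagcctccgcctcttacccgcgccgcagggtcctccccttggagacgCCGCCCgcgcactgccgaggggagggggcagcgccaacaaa
The Reln window held 6 GC boxes, 80.7% G and C and 47 CpG dinucleotides. The first of the 2 Lhx2 windows held 4 GC boxes, and the Lrat and Col4a1 windows held 2 and 1 beside a single CCAAT box each. Within the windows printed here no motif overlapped another.

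A set of 3 starts without an interval in either table are given for comparison. Col1a2 and Col3a1 encode chains of the fibrillar collagens of scar tissue, and Acta2 encodes the smooth muscle actin of activated stellate cells. The Col1a2 window is at chr6:4505368-4505667 on the plus strand, the Col3a1 window at chr1:45311288-45311587 on the plus strand and the Acta2 window at chr19:34255324-34255623 on the minus strand. Capitals mark the GC box, the CCAAT box and the TATA box (TATAAA).
Col1a2: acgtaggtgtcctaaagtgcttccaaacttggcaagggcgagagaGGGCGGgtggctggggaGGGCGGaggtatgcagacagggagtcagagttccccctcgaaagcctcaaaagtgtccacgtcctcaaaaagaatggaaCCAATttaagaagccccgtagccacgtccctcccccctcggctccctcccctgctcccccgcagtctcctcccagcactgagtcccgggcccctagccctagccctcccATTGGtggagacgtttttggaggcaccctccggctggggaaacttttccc
Col3a1: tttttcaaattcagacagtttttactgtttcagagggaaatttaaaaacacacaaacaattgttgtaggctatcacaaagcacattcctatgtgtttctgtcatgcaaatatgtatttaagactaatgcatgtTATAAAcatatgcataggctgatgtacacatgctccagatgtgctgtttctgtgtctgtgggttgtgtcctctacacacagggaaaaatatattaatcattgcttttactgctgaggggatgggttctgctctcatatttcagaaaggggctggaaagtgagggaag
Acta2: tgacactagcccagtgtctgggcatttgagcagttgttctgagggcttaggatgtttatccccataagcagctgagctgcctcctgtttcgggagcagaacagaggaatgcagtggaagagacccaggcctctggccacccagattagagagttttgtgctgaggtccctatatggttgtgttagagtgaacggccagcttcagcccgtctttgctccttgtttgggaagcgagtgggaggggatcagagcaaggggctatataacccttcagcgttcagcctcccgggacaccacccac
The Col3a1 window had 37.7% G and C, no CpG and a TATA box, and the Col1a2 window had 61%, 2 GC boxes and 2 CCAAT boxes. In the Acta2 window, with 54.7%, no stretch matched the marked motifs letter for letter. Among all members the median G and C content was 63.3% in the 15 windows with an interval and 55% in the 13 without. The same order held over all protein-coding genes, with 61.7% in 11988 windows with an interval and 49% in 9057 without. A GC box was present in 10 of 15 member windows with an interval (66.7%, against 65.5% of all such windows) and in 6 of 13 without (46.2%, against 21.7%). A CCAAT box was found in 32.1% of the member windows and 38.5% of all windows, a TATA box in 10.7% and 12.7%, and the AP-1 site (TGANTCA) in 7.14% and 7.04%. The CArG box, searched strictly as CCWWWWWWGG with W for A or T, was in 0 of 28 member windows and in 1.54% of all windows. Only exact matches were counted for every motif. The Acta2 window holds near matches to the CArG box (ccctatatgg and ccttgtttgg) and to the TATA box (ctatataac), which were left out. No match says only that these exact letters are not in the window, not that such an element is absent.

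**Figure D1:**
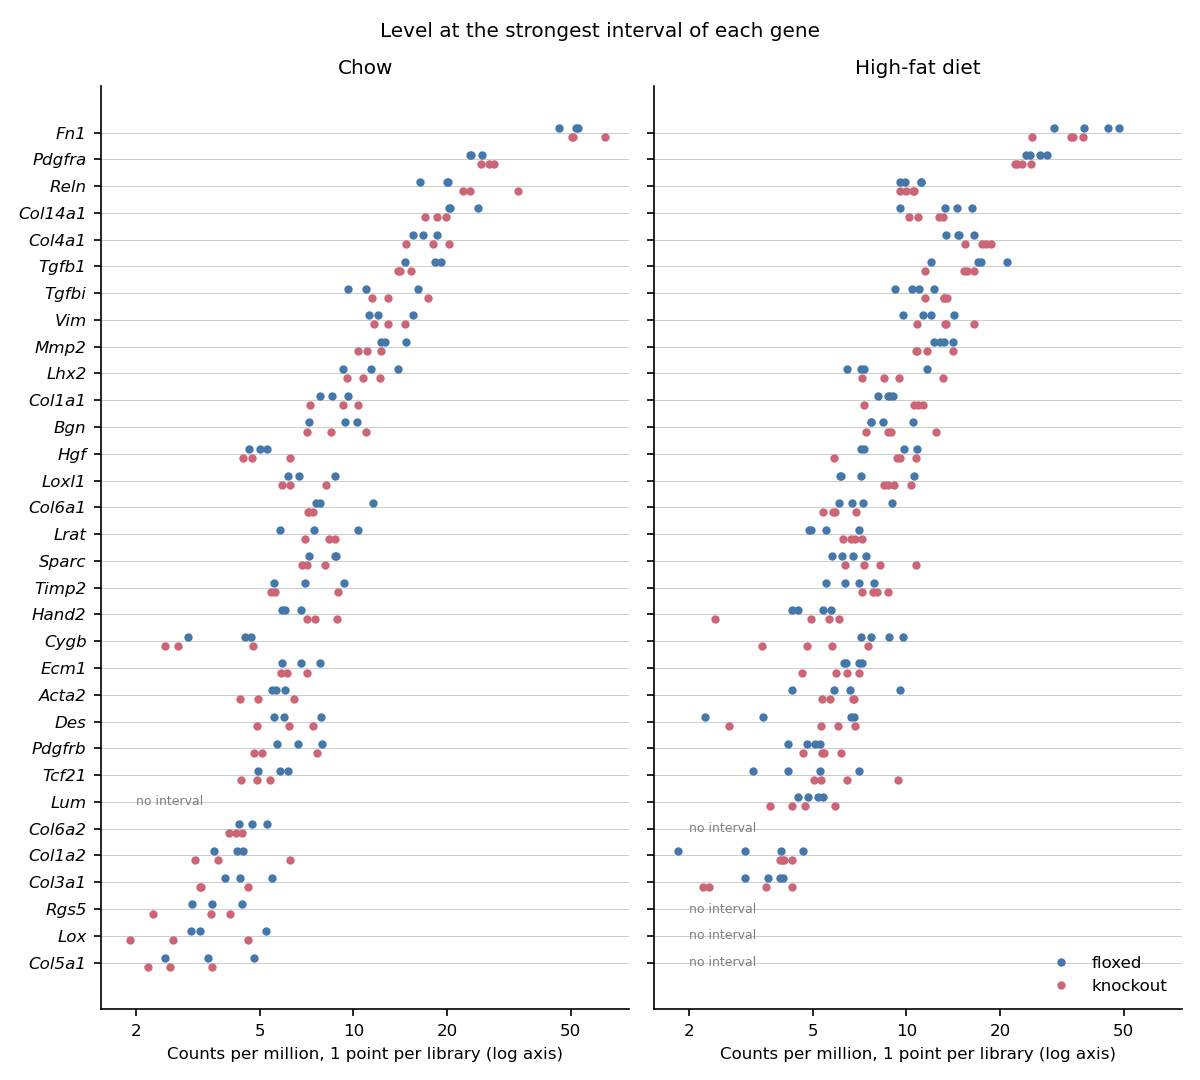
CPM (log axis, 1 point per library) at the interval with the highest mean level of each gene, for floxed (blue) and knockout (red) livers on chow (3 of each) or the high-fat diet (4 of each). Fn1 and Pdgfra stood at the top in both tables, and Col5a1, Lox, Rgs5 and Col3a1 were at the low end where they had an interval.

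Levels at each gene's strongest interval spanned from 3.15 CPM (Col5a1) to 52.8 CPM (Fn1) on chow and from 3.36 CPM (Col3a1) to 36.3 CPM (Fn1) on the high-fat diet, as the plot of levels by gene shows. All intervals have 1 width, so these levels can be set side by side within a table. After Fn1 came Pdgfra (the receptor for PDGF-A on stellate cells and fibroblasts) with 25.8 and 24.8 CPM at an interval inside the gene. Reln followed on chow with 22.8 CPM at its start window, and Col4a1 on the high-fat diet with 16.1 CPM at 24.9 kb outside the gene. Among the genes of fibrillar collagen, Col1a1 reached 8.81 and 9.36 CPM inside the gene, above 55.5% of all chow and 68.5% of all high-fat intervals. Col1a2 had at most 4.2 and 3.71 CPM, at 16.3 and 4.41 kb outside the gene, and Col3a1 4.11 and 3.36 CPM inside it. Only 9.27% of all chow intervals were weaker than the Col1a2 interval and 8.31% weaker than the Col3a1 interval. Neighbours in this order, from Vim at 13 CPM down to Bgn at 8.9 CPM on chow, had ranges over libraries that overlapped.

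No member passed the test between genotypes. On chow 0 of 141 intervals and 0 of 31 genes on summed counts were called by edgeR's quasi-likelihood test at an adjusted p of 0.05, where 0.0227% of all intervals and 0% of all genes were called. On the high-fat diet 0 of 183 intervals and 0 of 28 genes were called, where 0.751% of all intervals and 0.436% of all genes were. DESeq2 and limma-voom also called 0 members in each of these 4 comparisons. At an unadjusted p of 0.05 the count was 9 of 141 chow intervals (6.38%, against 6.77% of all intervals) and 15 of 183 high-fat intervals (8.2%, against 10.2%). For genes it was 1 of 31 on chow (3.23%, against 6.26% of all genes) and 1 of 28 on the high-fat diet (3.57%, against 9.83%). The smallest adjusted p was 0.624 for a chow interval (Reln), 0.73 for a chow gene, 0.115 for a high-fat interval (Fn1) and 0.369 for a high-fat gene (Cygb).

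Fold changes below are log2 of knockout over floxed. The median over the 141 chow intervals was -0.10, beside -0.0032 over all chow intervals, and 90 of the 141 were below 0. Over the 183 high-fat intervals it was -0.043, beside -0.0039, with 103 below 0. Without Fn1, an alternative chosen after seeing the data, the medians were -0.070 and -0.0075. On summed counts 24 of 31 genes were below 0 on chow (median -0.10, all genes 0.013) and 15 of 28 on the high-fat diet (median -0.025, all genes 0.0044). Chow intervals at a start site of any gene had a median of 0.068, with 33.5% below 0. The 12 of the members had a median of -0.0087, with 58.3% below 0. The part of the kind of interval in these medians was not tested. Intervals of a gene share their livers and often their neighbourhood, and are not replicates. In the chow table the shallow libraries numbered 2 both held the highest summed level of their genotype at most members. The exceptions were Reln, Pdgfra, Hand2, Fn1, Col14a1, Vim, Ecm1, Col4a1 and Hgf. The share of all genes with that order was not counted. Without both of these libraries 0 member intervals and 0 member genes were called.

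**Figure D2:**
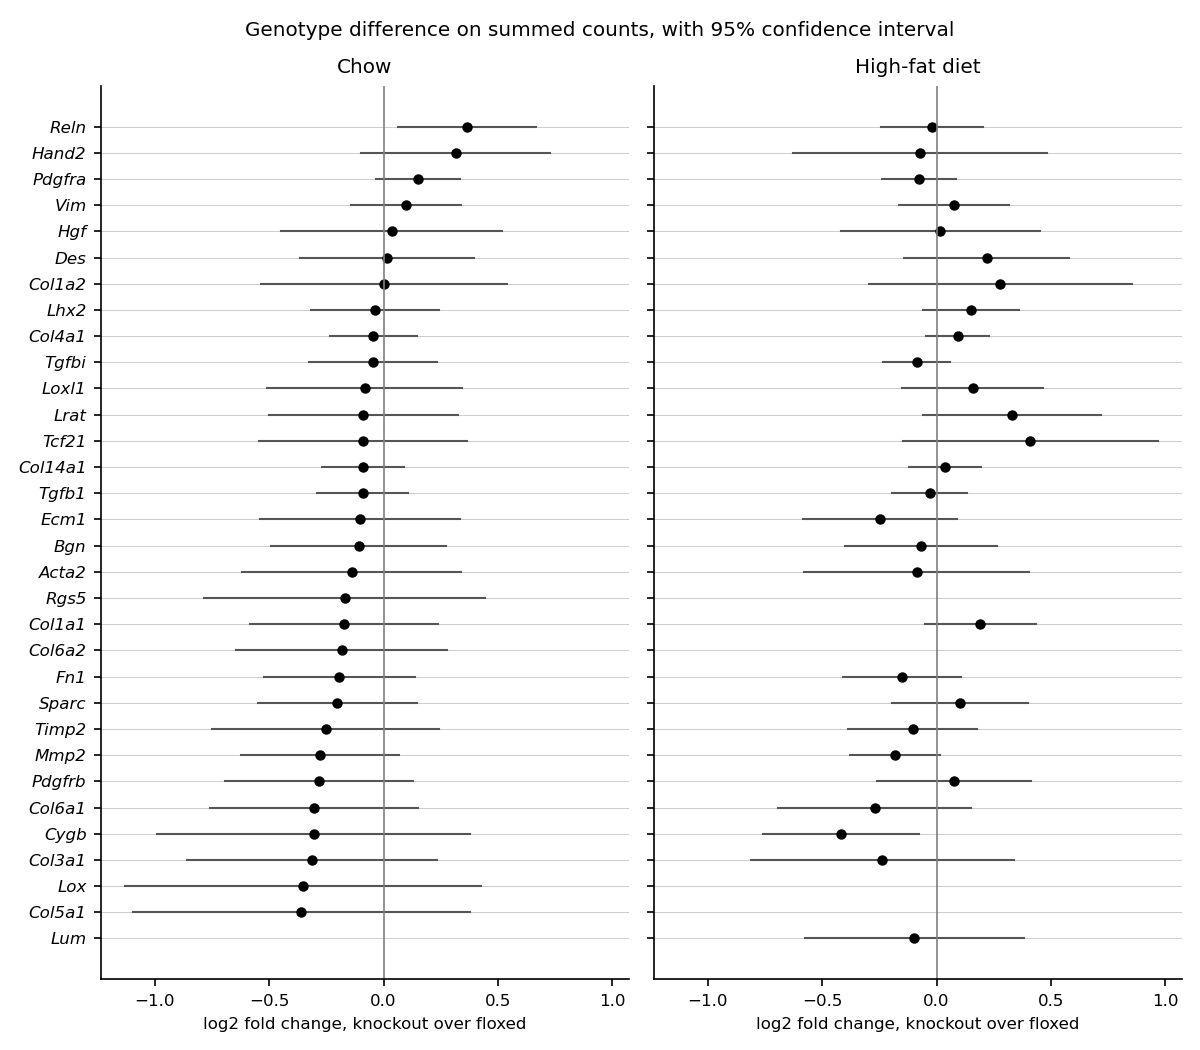
Log2 fold change of knockout over floxed on summed counts of each gene (point) with its 95% confidence interval (bar), for chow and the high-fat diet; a row with no point had no interval in that table. The bar crosses 0 for 30 of 31 genes on chow and for 27 of 28 on the high-fat diet, the exceptions being Reln and Cygb.

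On summed counts these libraries limited the size of a difference that could have gone unseen. Single intervals could hide more. In simulated counts the test called 4.41% of chow and 6.67% of high-fat intervals that were given a log2 change of 0.5. The 95% confidence interval of the summed counts contained 0 for 30 of 31 genes on chow and 27 of 28 on the high-fat diet. It lay within 1 on either side of 0 (a doubling or its inverse) for 29 and 28 genes, and within 0.5 for 9 and 17. Col4a1 and Col14a1 were the most closely bounded collagens: Col4a1 had -0.04 (95% interval -0.23 to 0.15) on chow and 0.09 (-0.05 to 0.23) on the high-fat diet, and Col14a1 had -0.09 (-0.27 to 0.09) and 0.04 (-0.12 to 0.20). Lox, the enzyme that crosslinks collagen, was the least bounded on chow, at -0.35 (-1.13 to 0.43).

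Among the stellate identity genes, Reln stood highest on chow. Its start window (chr5:22344629-22345129, the stretch around the sequence shown above) held 23.7, 22.5 and 33.9 CPM in knockouts 1 to 3 and 20.2, 16.3 and 20 CPM in floxed livers 1 to 3. All 3 knockout libraries were above all 3 floxed libraries, with knockout 3 farthest up. The log2 fold change was 0.50 (SE 0.18) and the adjusted p from edgeR 0.624. With high-fat feeding the matched interval held 9.55 to 10.6 CPM in knockout and 9.56 to 11.2 CPM in floxed livers, and the groups overlapped (-0.04, SE 0.17). Summed over the gene's 5 and 6 intervals the values were 0.36 (95% interval 0.06 to 0.66) on chow and -0.02 (-0.24 to 0.20) on the high-fat diet. Without chow knockout 3 the chow sum was 0.18 and the start window 0.29, and the chow sum was 0.091 when only intervals with their midpoint inside the gene were counted.

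Pdgfra gave 61.2, 58.1 and 59.6 summed CPM in chow knockouts and 55, 55 and 51.2 in chow floxed livers. The knockout libraries were again all higher, by 0.15 on the log2 scale (SE 0.083, adjusted p 0.73), while on the high-fat diet the groups overlapped at 51.8 to 58.5 against 55.2 to 58.6 CPM (-0.08, SE 0.078). Hand2, a transcription factor of quiescent stellate cells, had a single interval 4.21 kb outside the gene, with 7.5, 8.84 and 7.07 CPM in chow knockouts and 5.9, 6.03 and 6.76 CPM in floxed livers. Its groups did not overlap either, and its log2 fold change on chow was 0.32 (SE 0.18). High-fat feeding gave -0.07 (SE 0.26).

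Cygb, encoding the globin cytoglobin found in stellate cells, had the smallest unadjusted p of the 28 genes on the high-fat diet. Its interval inside the gene (chr11:116648894-116649394) held 7.51, 3.42, 5.75 and 4.8 CPM in knockouts 1 to 4 and 9.78, 8.78, 7.66 and 7.14 CPM in floxed livers 1 to 4. Knockout 1 lay above floxed 4, so the groups overlapped. The log2 fold change was -0.63 (SE 0.22, adjusted p 0.239) there and -0.42 (SE 0.16, adjusted p 0.369) on the gene's summed counts. That interval had no match on chow, where the gene's single interval gave -0.31 (SE 0.31).

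Lhx2, Lrat and Tcf21 (a factor that marks stellate cells and fibroblasts) had higher means in knockouts on the high-fat diet without passing the test. Lhx2 summed to 67.4, 72.6, 83.7 and 90 CPM in knockouts and 68.4, 58.9, 80.2 and 75 CPM in floxed livers, a log2 fold change of 0.15 (SE 0.10) against -0.04 (SE 0.13) on chow. Lrat summed to 9.93 to 12.7 CPM in knockouts and 6.53 to 11.7 CPM in floxed livers (0.33, SE 0.19), against -0.09 (SE 0.19) on chow. Tcf21 had 5.04, 5.29, 9.4 and 6.44 CPM in knockouts and 4.16, 3.22, 5.28 and 7.03 CPM in floxed livers (0.41, SE 0.27), against -0.09 (SE 0.21) on chow. In each of the 3 the knockout and floxed ranges overlapped. Pdgfrb, the PDGF-B receptor of activated stellate cells, was at -0.28 (SE 0.19) on chow and 0.08 (SE 0.16) on the high-fat diet. Ecm1, a secreted protein that holds latent TGF-beta inactive, was at -0.25 (SE 0.16) on the high-fat diet and -0.10 (SE 0.20) on chow. Des, Rgs5 and Hgf, which encode the filament protein desmin, a G-protein regulator of pericytes and hepatocyte growth factor, were between -0.17 and 0.22 wherever they had an interval.

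No collagen gene passed the test on either diet. On chow 7 of 8 measured genes were below 0 (median -0.18), and on the high-fat diet 2 of 6 were (median 0.064), with 0 called in either. Col1a1 summed to 24, 22, 20.5 and 23.4 CPM in high-fat knockouts and 21.9, 17.9, 18.9 and 20.2 CPM in floxed livers, which overlapped (0.19, SE 0.12), and gave -0.17 (SE 0.19) on chow. Col6a1, part of the beaded type VI filaments, had 1 interval 9.18 kb outside the gene. On chow it held 7.21, 7.4 and 7.13 CPM in knockouts and 7.8, 11.6 and 7.59 CPM in floxed livers, so that the groups did not overlap but the knockouts lay just under 2 of the 3 floxed libraries (-0.30, SE 0.21).

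At Col4a1 no interval and neither sum passed the test, and the high-fat sum was 159.5 ± 6.39 CPM in knockout and 149.6 ± 2.41 CPM in floxed livers (SD, n = 4; log2 fold change 0.09, SE 0.066). At chr8:11279380-11279880 inside the gene, knockouts held 11.4, 11.3, 11.4 and 14 CPM and floxed livers 7.98, 9.56, 7.41 and 6.22 CPM, with no overlap (log2 fold change 0.61, SE 0.18, adjusted p 0.122). The matched chow interval overlapped between groups, at 9.9 to 13.4 against 9.06 to 12.6 CPM (0.14, SE 0.18). At chr8:11221137-11221637 the knockouts were themselves split, with 18.2 and 13.3 CPM in knockouts 2 and 4 and 4.83 and 6.14 CPM in knockouts 1 and 3, against 4.95 to 6.34 CPM in floxed livers (0.89, SE 0.28, adjusted p 0.153). Without knockout 1 this interval was called at an adjusted p of 0.017 by edgeR, and without knockout 2 its adjusted p was 0.59; these were the ends of its range over 17 alternatives. Over all 19 Col4a1 intervals 12 were below 0, and the median was -0.019.

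**Figure D3:**
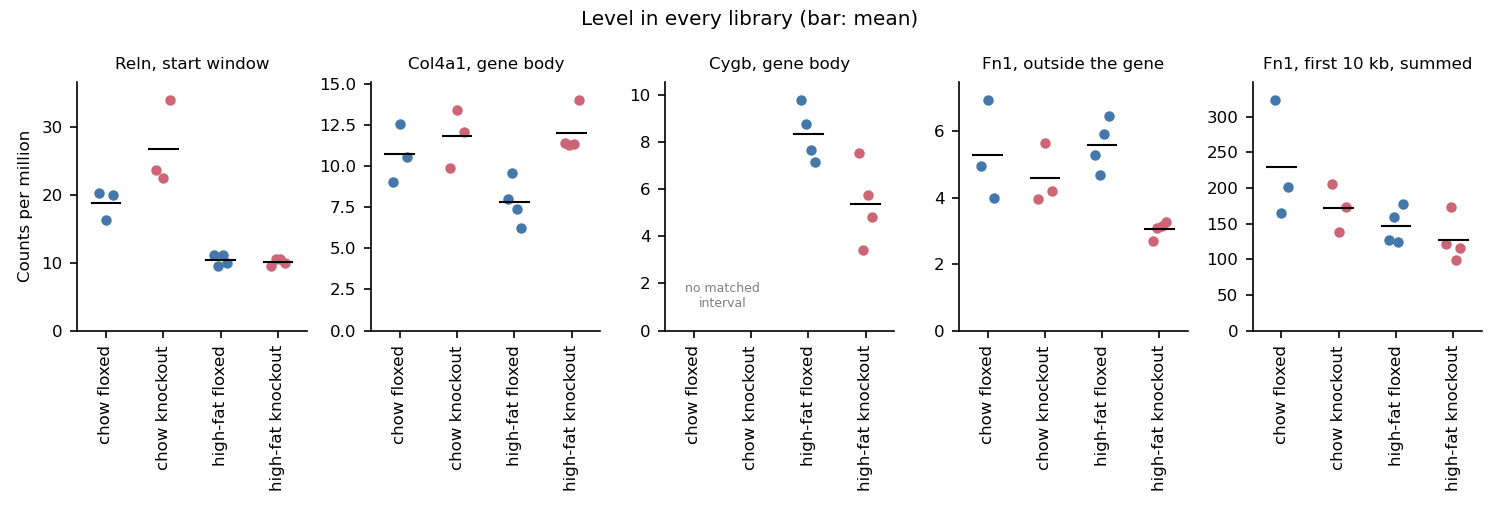
CPM in every library, from 0, with the mean as a bar, for the Reln start window, the Col4a1, Cygb and Fn1 intervals with the smallest p of their gene on the high-fat diet, and the sum over the intervals in the first 10 kb of Fn1. Reln separated the genotypes on chow, Col4a1 and the outer Fn1 interval on the high-fat diet, and 1 chow floxed library was far above the others in the first 10 kb of Fn1.

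Fn1 was the member with the most intervals below 0 and the smallest adjusted p on the high-fat diet. That p came from an interval 22.3 kb outside the gene (chr1:71675344-71675844) with 2.68, 3.09, 3.13 and 3.28 CPM in knockouts and 5.28, 4.68, 5.91 and 6.45 CPM in floxed livers. All knockout libraries were below all floxed libraries (-0.87, SE 0.25, adjusted p 0.115). On chow the matched interval held 3.96, 5.65 and 4.21 CPM in knockouts and 4.96, 6.94 and 3.98 CPM in floxed livers, which overlapped (-0.20, SE 0.26). The gene's summed counts gave -0.19 (95% interval -0.52 to 0.14) on chow and -0.15 (-0.41 to 0.11) on the high-fat diet. Leaving out chow floxed 1 gave -0.026, leaving out high-fat knockout 3 gave -0.047 and leaving out high-fat floxed 4 gave -0.0598.

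Along the gene, the lower values sat near its start. Distance was counted from the high-coordinate bound, taken as the gene's start from background knowledge of its strand, which the gene table used here does not give, and the 10 kb limit was set after the profile had been seen, so the segments are a description without a test. On chow 12 of 13 intervals in the first 10 kb were below 0 (median -0.57), and 10 of the 20 in the rest of the gene (median -0.052). High-fat counts were 10 of 14 (median -0.31) and 27 of 43 (median -0.091). The gene's strongest interval, in the rest of the gene, had 0.14 (SE 0.13) on chow and -0.29 (SE 0.13) on the high-fat diet.

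Summed over the first 10 kb, chow floxed livers 1 to 3 held 323.4, 164.8 and 201.5 CPM and chow knockouts 206.1, 138 and 173.3 CPM. Floxed 1 was far above every other chow library, and the remaining libraries overlapped. Within each library number the knockout was below the floxed liver, though the labels do not pair libraries by number. The same order held for the chow sums of Fn1, Mmp2, Pdgfrb, Sparc, Col3a1, Col5a1, Col6a1, Col6a2, Col14a1, Timp2, Tgfb1, Lox and Rgs5. It did not hold for the other members, and the share of all genes with that order was not counted. With the replicate block the median of the 13 chow intervals was -0.54 and their smallest adjusted p from edgeR 0.125, so none was called. Without floxed 1 the chow median of the 13 intervals was -0.15, with 9 below 0, instead of -0.57. On the high-fat diet floxed livers held 127.7, 159.4, 123.8 and 177.9 CPM and knockouts 121.6, 173.1, 99.6 and 115.2 CPM, with overlapping groups. The summed hepatocyte markers of the same libraries were 10440, 7576 and 10210 CPM in chow floxed and 8293, 7131 and 7234 CPM in chow knockout livers. High-fat sums were 5138 to 8246 CPM in floxed and 4506 to 6481 CPM in knockout livers. The part of hepatocyte chromatin in the Fn1 values was not tested.

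**Figure D4:**
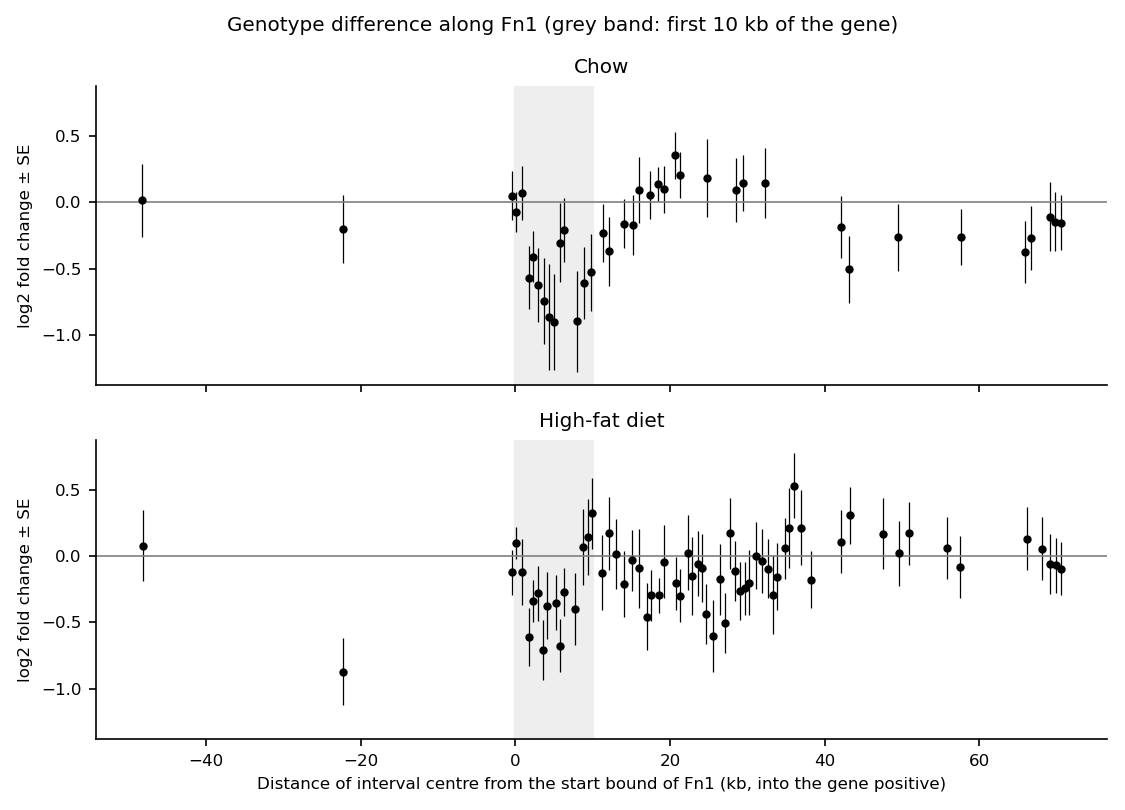
Log2 fold change of knockout over floxed (± SE) of every Fn1 interval against the distance of its centre from the start bound of the gene in kb, positive into the gene, on chow (39 intervals) and the high-fat diet (64 intervals). In the grey band, the first 10 kb, 12 of 13 chow and 10 of 14 high-fat intervals lie below 0.

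Calls at Fn1 and Col4a1 on the high-fat diet depended on single libraries. Leaving out knockout 2 called 2 Fn1 intervals inside the gene, with adjusted p of 0.0256 and 0.0314 from edgeR, and leaving out floxed 1 called another, with 0.0186. With all libraries the 3 had adjusted p of 0.42, 0.175 and 0.122, and over the 17 alternatives each they ran from 0.0186 to 0.765. Leaving out knockout 3 or 4 or floxed 2, 3 or 4 called no member interval. The share of all intervals called with a library left out was not recorded, so these calls cannot be set against it.

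The other matrix glycoproteins had confidence intervals that contained 0. Sparc, which binds collagen and is secreted by activated stellate cells, was at -0.20 (SE 0.16) on chow and 0.10 (SE 0.14) on the high-fat diet. The proteoglycan genes Bgn and Lum and the TGF-beta-induced matrix gene Tgfbi were between -0.11 and -0.046 wherever measured. Among the matrix enzymes and inhibitors, Mmp2 (gelatinase A) was lower in the knockouts on both diets without passing the test. Its summed counts on the high-fat diet were 26.8, 25.5, 27.3 and 27.3 CPM in knockouts and 31.4, 29.8, 30.3 and 29.6 CPM in floxed livers, with no overlap (-0.18, SE 0.094, adjusted p 0.554). On chow they were 18.4, 21.8 and 16.4 against 21.3, 27.2 and 20.1 CPM, which overlapped (-0.28, SE 0.16, adjusted p 0.73). Loxl1, a crosslinking enzyme of elastic fibres, was at -0.08 (SE 0.19) and 0.16 (SE 0.15), and Timp2, an inhibitor of matrix proteases, at -0.25 (SE 0.22) and -0.10 (SE 0.14). Of the activation genes, Acta2 was at -0.14 (SE 0.22) and -0.09 (SE 0.24), Vim, encoding the intermediate filament vimentin, at 0.10 (SE 0.11) and 0.08 (SE 0.11), and Tgfb1, the ligand of the main fibrogenic pathway, at -0.09 (SE 0.090) and -0.03 (SE 0.079).

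Counted by overlap alone, 5 of 31 genes on chow had knockout and floxed groups that did not overlap, which were Reln, Pdgfra and Hand2 (higher) and Col6a1 and Col14a1 (lower), where 11% of all genes did. Among chow intervals the count was 10 of 141 (7.09%), where 11.7% of all intervals did. With high-fat feeding it was 1 of 28 genes (Mmp2), where 5.11% of all genes did, and 4 of 183 intervals (2.19%), where 5.3% of all intervals did. The members' shares were near or below those of all features except for the chow genes, where the count is small.

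Whether the genotype effect differed between the diets was tested in 1 fit of all 14 libraries on 123 member intervals of 26 genes that matched between the tables. By edgeR 0 of 123 intervals and 0 of 26 genes were called, where 0.183% of all matched intervals and 0.0522% of all genes were. Limma-voom called 0 as well. By edgeR 5498 of all 73945 matched intervals and 1011 of all 15312 genes had an unadjusted p under 0.05. Among the members 3 intervals and 1 gene did. The gene was Reln, with a high-fat effect lower than the chow effect by 0.46 on the log2 scale (95% interval of the difference -0.90 to -0.01, adjusted p 0.742). Next were Pdgfra at -0.19 (-0.41 to 0.02), Tcf21 at 0.65 (-0.08 to 1.38), Pdgfrb at 0.44 (-0.08 to 0.97) and Lrat at 0.44 (SE 0.27). Fn1 was at 0.03 (-0.38 to 0.44).

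A contrast added after seeing the data took the mean of both diets' effects in the same fit. It called 0 of 123 member intervals and 0 of 26 genes by edgeR, where 0.207% of all matched intervals and 0.0914% of all genes were called, and 13 intervals and 1 gene had an unadjusted p under 0.05, as did 7271 of all 73945 matched intervals and 1839 of all 15312 genes. The gene was Mmp2, at -0.22 (95% interval -0.40 to -0.04, adjusted p 0.338). The 5 intervals with the smallest p were all at Fn1, the first of them at -0.58 (SE 0.15, adjusted p 0.133 by edgeR and 0.0461 by limma-voom with quality weights). How many of all matched intervals limma-voom called was not recorded.

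Genes of the surrounding pathways were read from lists in the same way. The 6 lists held 22 TGF-beta ligands, receptors, SMAD factors and targets, 4 PDGF ligands, 17 other collagens and basement membrane genes, 14 collagen processing genes, 11 matrix proteases and inhibitors and 21 other stellate cell genes, and none of those measured had a called interval or a called sum on either diet. Median fold changes over the genes of these 6 lists ran from -0.25 (PDGF ligands, 4 genes) to 0.050 on chow and from -0.0074 to 0.048 on the high-fat diet. The list of other collagens and basement membrane summed to 1501 to 1566 CPM in chow knockout and 1387 to 1454 CPM in chow floxed livers, and the TGF-beta list to 2276 to 2343 CPM in high-fat knockout and 2353 to 2387 CPM in high-fat floxed livers. In both cases the groups did not overlap, and these sums are named for that reason. The chow sums of the matrix proteases and inhibitors met at 283.5 CPM, and the remaining sums of the 6 lists overlapped on both diets. The sums over a list were not tested, and how often sums over other sets of genes separate was not counted.

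Markers of other liver cells were set beside the members. On the high-fat diet 46 of 503 intervals of the hepatocyte list, at 8 genes (Alb, Apoa2, Apob, Cyp2e1, Cyp7a1, Tat, Trf and Ttr), fell in the knockouts and 1 interval, at Alb, rose, where 0.751% of all intervals were called in either direction. The summed counts of Alb, Apoa2, Cyp7a1 and Ttr fell too. On chow 1 of 475 hepatocyte intervals, at Alb, rose. The rising Alb interval lay outside the gene in both tables. It was 10718 bases away on chow (1.29, SE 0.16) and 10754 bases away on the high-fat diet (1.42, SE 0.12). Only the knockouts carried Albumin-Cre, and the part of that transgene in the Alb values was not tested. Of the non-parenchymal lists, 1 interval of Fbln2 (a portal fibroblast gene) rose by 0.73 (SE 0.18, adjusted p 0.0497), 1 of Notch3 (a receptor of vascular smooth muscle) rose by 1.29 (SE 0.26, adjusted p 0.0111), and 1 of Eng (an endothelial TGF-beta co-receptor) fell by 1.18 (SE 0.29, adjusted p 0.0445), all on the high-fat diet. No interval of the Kupffer cell, cholangiocyte, lymphocyte or neutrophil lists was called. The summed Kupffer cell markers, from 16 of 18 genes, were 427.4 to 447 CPM in high-fat knockouts and 362.6 to 444.9 CPM in floxed livers, and 13 of the 16 genes were above 0 (median 0.19). On chow 11 of 13 Kupffer cell genes were below 0 (median -0.13), as were 14 of 16 genes of sinusoidal endothelium (median -0.15). So were 5 of 5 neutrophil genes (median -0.41) and 14 of 16 hepatocyte genes (median -0.29), beside 24 of 31 members. Portal fibroblast and mesothelial genes gave 7 of 8 (median -0.098), and vascular smooth muscle genes 8 of 11 (median -0.054). Cholangiocyte genes gave 3 of 7 (median 0.0090) and lymphocyte genes 3 of 6 (median -0.0034). Over all chow genes 46.8% were below 0. The next sums are for knockout against floxed livers on the high-fat diet. The portal fibroblast and mesothelial list, from 10 of 13 genes and without Thy1, Msln and Mfap4, was at 299.8 to 341.3 against 304.4 to 326.2 CPM. The stellate identity members were at 223.8 to 277.5 against 217.9 to 263.4 CPM, and the collagen members at 255.5 to 268.8 against 245.4 to 253.8 CPM. Most of the collagen sum came from Col4a1 and Col14a1, with means of 159.5 and 68.3 CPM in these knockouts. On chow the collagen members overlapped, at 256.7 to 273.4 CPM in knockout and 270.4 to 286.6 CPM in floxed livers. The part of these other cells in the members' values was not tested.

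**Figure D5:**
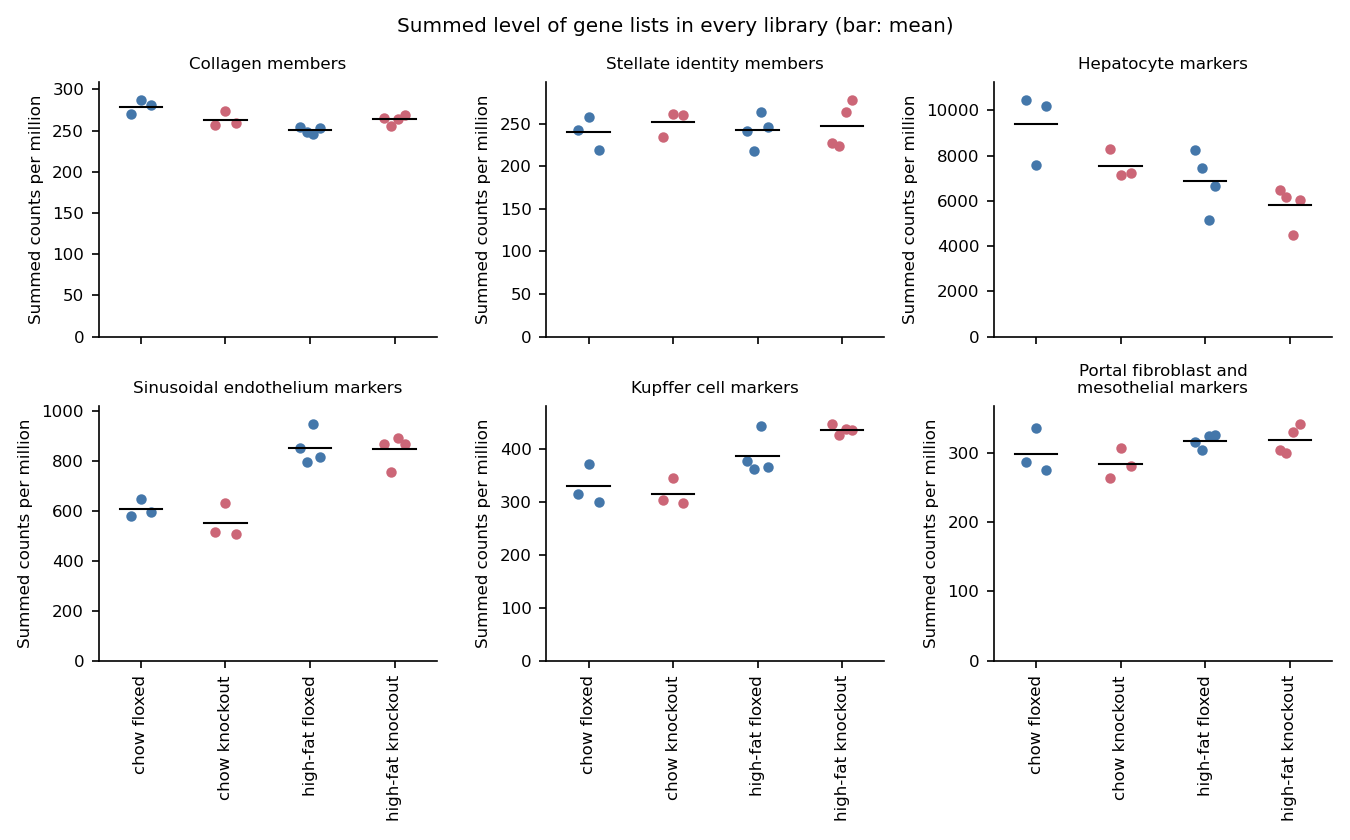
Summed CPM of 2 member groups and 4 marker lists in every library, from 0, with the mean as a bar; the tables of the diets were counted separately, so levels are compared within a diet only. The collagen members sat at 245.4 to 253.8 CPM in floxed and 255.5 to 268.8 CPM in knockout livers on the high-fat diet. On chow the groups overlapped, at 270.4 to 286.6 CPM in floxed and 256.7 to 273.4 CPM in knockout livers.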

How the data were processed

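Intervals and their reads were counted per library by the authors, 1 table per diet, and the deposited whole-number counts were used as they stand. All intervals have the same width and are in mm10 coordinates, per the labels. Per the submitters' processing notes, bedtools, MACS2 2.2.7.1, Bowtie2 2.4.2, ChIPseeker 4.1.1, DESeq2 4.2.0, HOMER 4.11 and Trim Galore 0.6.7 were used, with no roles stated. Neither the treatment of duplicates nor that of the transposase offset is stated in the sources used here. The intervals were called on the same livers that are compared (53 of the chow and 73 of the high-fat member intervals carry a knockout name, 88 and 110 a floxed one).

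Gene bounds of 21631 protein-coding genes came from RefSeq (GRCm38.p6). Each table was fitted whole with edgeR 4.0.16 in R 4.3.3 (TMM, filterByExpr, which removed 0 intervals, quasi-likelihood test, Benjamini-Hochberg over all intervals or genes at 0.05), once per interval and once on counts summed per gene. Diets were joined on 73945 intervals with at least 50% overlap. DESeq2 1.42.0, limma 3.58.1, other normalizations, filters, assignment distances, the replicate block and leaving out each library were alternatives. The fits were tested on simulated data. Libraries are read as separate animals. Chow columns give a genotype and a number but match no single sample label, so they stand for their group. Deviations of same-numbered chow columns correlated (0.191, 0.535 and 0.193), and those of high-fat samples did not throughout (0.0679, 0.131, 0.178 and -0.0117). CPM scale the counts to a library's total within intervals multiplied by its TMM factor, and errors are SD for levels and SE for fold changes. Interval overlap with a start window means at least 1 shared base.

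Members and gene lists were chosen with earlier results of these data known. Named with fold changes were the 8 members with the smallest unadjusted p on summed counts per diet, and each one's interval with the smallest p. Fold changes of the remaining members are given more briefly. Genes of other lists were to be named if called, up to 8 per diet by smallest p; Cyp2e1, Fbln2 and Tat, which fall outside these 8, were named after their values had been seen.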

Additional observations from a re-analysis of the deposited data

Results flagged for a closer look

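Among the 60 groups of 4 high-fat libraries examined for the named members, 3 held a library farther from the others than Dixon's 95% limit for 4 values, and chance gives about 1 in 20. At Col4a1 (inside the gene) knockout 4 held 14 CPM, and the other knockouts 11.3 to 11.4 CPM. At Col1a1 knockout 3 held 7.31 CPM, and the others 10.6 to 11.3 CPM. At the Ecm1 start window knockout 3 held 6.14 CPM, and the others 3.64 to 4.04 CPM.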

How the results depend on the processing

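Member counts called stayed at 0 in each of the 6 planned comparisons under DESeq2 (both diets singly), limma-voom with quality weights, RLE factors and 80% overlap where run, and, for the single diets, cyclic loess, both filter settings and both assignment rules. Leaving out each library in turn gave 0 to 2 called high-fat intervals (1 without knockout 1, 2 without knockout 2, 1 without floxed 1) and 0 in the other 5. The mean over both diets gave 1 called interval under limma-voom. The shares of all intervals called in these alternatives were not recorded. With the replicate block all 6 counts were 0, and the smallest adjusted p was 0.125 for chow intervals, 0.0993 for chow genes, 0.0726 for high-fat intervals, 0.189 for high-fat genes, and 0.248 and 0.264 for the difference between diets. The block changed no call. The median of the member intervals ran from -0.18 to -0.058 on chow and from -0.080 to -0.0075 on the high-fat diet over all settings.

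Of 60 named member values 49 kept their sign in every setting run and 11, none of them called, did not. On chow, leaving out single libraries moved the summed log2 fold change of Col1a1 from -0.31 to 0.032, of Ecm1 from -0.20 to 0.010 (its interval -0.20 to 0.0095), of Lhx2 from -0.14 to 0.078, of Lrat from -0.25 to 0.090 and of Tcf21 from -0.23 to 0.079. Ecm1 was 0.031 after cyclic loess, and Lrat 0.054 without both libraries numbered 2 and 0.037 with assignment within 10 kb. On the high-fat diet the ranges were -0.20 to 0.15 for Hand2 (its interval -0.20 to 0.15), -0.00042 to 0.18 for Pdgfrb, -0.10 to 0.039 for Reln and -0.0074 to 0.21 for Sparc. With intervals inside the gene only, Pdgfrb was -0.038 and Reln 0.00069. The cause was not tested.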
